A study of Mus musculus with 5 samples.

Results

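The 6 genes described here code for apolipoproteins: Apoe, Apoc1, Apoc2, Apoc4, Apod and Clu. They are all the entries, of 55450 in the gene lists of the count matrices, whose symbol equals 1 of these names, and each symbol belonged to 1 gene ID. The genes were chosen by their levels by cell type in these same 5 libraries, as an earlier analysis had shown them, so their levels are a description and support no claim about the choice. Cortical cells of C57BL/6J mice were profiled by droplet single-cell RNA sequencing (10x Genomics 3′ v3 chemistry) in 5 libraries, 1 per group. Sham mice made up the control group, and the other 4 libraries were taken 1, 3, 7 and 14 days after the mice received a traumatic brain injury. The labels place the 4 injured libraries at the injury site and name no site for sham, and they give no number, age or sex of the mice. With 1 library per group no test between groups was possible, so every interval printed is a 95% interval for counting error only.

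Apolipoproteins are secreted proteins that coat lipoprotein particles and carry cholesterol and phospholipids between cells. In the brain, where plasma lipoproteins do not pass the blood-brain barrier, astrocytes are known as the main source of ApoE, and neurons and glia take the particles up through lipoprotein receptors. Microglia that take up myelin or debris are known to switch on Apoe as well. Small C apolipoproteins sit on the same particles and act on lipoprotein lipase and on receptor uptake. ApoD is a lipocalin that binds small hydrophobic molecules and is known in oligodendrocytes and mural or meningeal cells, and clusterin, the product of Clu, is an extracellular chaperone also called apolipoprotein J.

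In the GENCODE annotation of GRCm38, 4 of the genes lie side by side on the minus strand of chromosome 7, within 27610 bases. From the 3′ side these are Apoc2 (7:19671579-19677941), Apoc4 (7:19678083-19681479), Apoc1 (7:19689481-19692660) and Apoe (7:19696109-19699188). Apod lies on chromosome 16 (16:31296192-31314808, minus strand) and Clu on chromosome 14 (14:65968483-65981547, plus strand). All 6 are protein-coding. A read-through gene, Gm44805 (7:19671584-19681423), overlaps both Apoc2 and Apoc4. It shares 646 of the 813 exonic bases of Apoc2 (79.5%) and 195 of its last 200, where 3′ reads fall, but 119 of 2537 exonic bases of Apoc4 and 0 of its last 200. Apoc2 counts are therefore uncertain, because reads that match 2 genes can be dropped from counting.

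RefSeq promoter windows of 300 bases (250 before to 50 after the start, GRCm38.p6) were matched for 4 of the 6 genes. Those of Apoe and Apoc4 are shown because these neighbours both rose in microglia and macrophages, as described further on. The Apoe window is chr7:19699139-19699438 and the Apoc4 window chr7:19681411-19681710, both on the minus strand and written 5′ to 3′, with capitals for the motifs found.
Apoe: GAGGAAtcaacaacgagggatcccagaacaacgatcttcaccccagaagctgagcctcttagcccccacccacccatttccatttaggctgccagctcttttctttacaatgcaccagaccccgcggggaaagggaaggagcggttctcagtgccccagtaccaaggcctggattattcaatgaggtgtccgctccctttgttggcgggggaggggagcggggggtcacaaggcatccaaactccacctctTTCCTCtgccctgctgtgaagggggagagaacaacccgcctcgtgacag
Apoc4: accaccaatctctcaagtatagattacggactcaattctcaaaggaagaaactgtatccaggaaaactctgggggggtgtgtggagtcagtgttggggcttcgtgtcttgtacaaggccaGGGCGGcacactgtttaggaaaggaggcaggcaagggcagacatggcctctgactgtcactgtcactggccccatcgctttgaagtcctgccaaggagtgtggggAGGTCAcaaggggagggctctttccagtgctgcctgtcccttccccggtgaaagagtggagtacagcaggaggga
The Apoe window held the PU.1 core GAGGAA at 2 places, counted on both strands, 1 of them as its reverse complement. The Apod window, not shown, held it at 2 places too, and the Apoc4 window at 0. The same 6 letters were found at least once in 28.3% of the 32851 promoter windows of the table. In the Apoc4 window the nuclear receptor core AGGTCA occurred at 1 place (16.3% of windows hold it) and the GC box GGGCGG at 1 place (35.7% of windows). The Apoe window held neither of these, so the 2 windows shared none of the motifs sought. The RefSeq start of Apoc4 lies 19 bases from the GENCODE gene start. A TATA box (TATAAA), an E-box (CACGTG) and an AP-1 site (TGANTCA) were found in neither window.

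After filtering, 55156 of 60574 barcodes were kept, from 9439 to 11930 per library. Total UMIs per library (unique molecular identifiers, each counting 1 captured transcript) rose from 11279455 in sham to 129161094 at day 14, and the median per barcode from 773 to 8558. At day 7, 12.7% of barcodes exceeded 20% mitochondrial UMIs, against at most 0.499% in the other libraries. Pairs of libraries shared between 27 and 59 barcodes, at most 0.483% of the smaller library. Clustering, run without the 6 genes, gave 32 clusters, of which 31 were named "-like" from marker genes. The unnamed cluster was led by Col1a1, Col1a2, Col3a1 and Dcn, and no cluster met the neuron markers, so neurons other than progenitor- and neuroblast-like cells are not described. Libraries differed in makeup: astrocyte-like cells were 40.4% of kept cells in sham and 2.44% at day 14. Levels are in CPM, the UMIs of a gene in a class of cells for each 1000000 UMIs of that class.

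Apoe, the main lipid carrier of the brain, was an astrocyte transcript in sham and mostly a microglia and macrophage transcript from day 3 on. Over all kept cells it made up 0.546% of UMIs in sham and 4.68% at day 14. In sham the astrocyte-like cells held 85.9% of all Apoe UMIs, and at day 14 they held 0.821%. The share held by microglia-like and monocyte/macrophage-like cells together was 9.81% in sham, 12.3% at day 1, 66.3% at day 3, 78.7% at day 7 and 93.5% at day 14. A share depends on how many cells of each class a library holds as well as on the level per cell, and the levels below separate these.

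**Figure D1:**
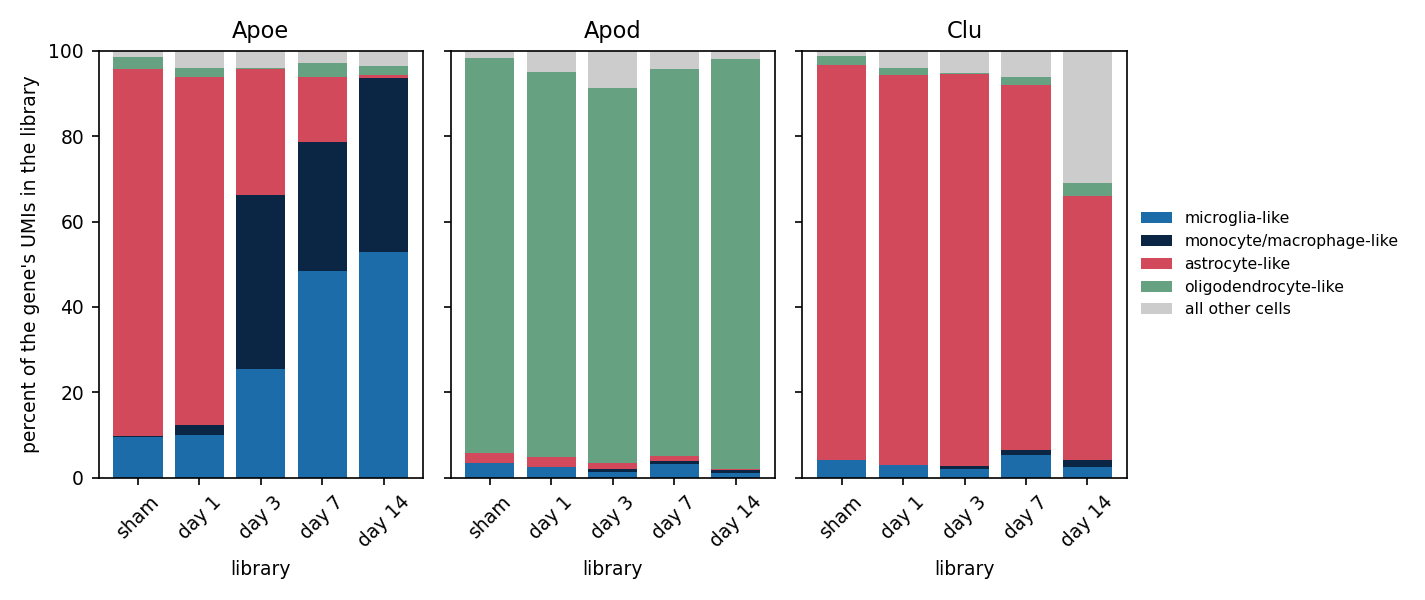
Stacked bars give the percent of each library's Apoe, Apod and Clu UMIs that each cell class held, in the 5 libraries. For Apoe the astrocyte-like share shrinks from 85.9% in sham to 0.821% at day 14, while Apod stays with oligodendrocyte-like cells (87.9% to 96.2%) and Clu with astrocyte-like cells (61.9% to 92.4%).

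In microglia-like cells, the resident macrophages of brain tissue, the Apoe level was 1374 CPM in sham (95% interval 1336 to 1412), 1028 at day 1, 6963 at day 3, 50462 at day 7 and 66484 at day 14. The 3 later libraries were thus above sham and day 1 by far more than counting error. Monocyte/macrophage-like cells, which enter injured tissue from blood and the brain's borders, stood at 6147 CPM in sham (22 cells), 11105 at day 1, 23888 at day 3, 116362 at day 7 and 79195 at day 14. They were above microglia-like cells 10.8-fold at day 1, 3.43-fold at day 3, 2.31-fold at day 7 and 1.19-fold at day 14, so the gap between these classes was narrower in each later library. Different clusters held most monocyte/macrophage-like cells: at day 3, 705 of 967 were in a cluster led by Pf4, Arg1 and Thbs1, with 27923 CPM, and at day 7, 618 of 854 in the Ccl8 cluster described further on. At day 14, 1027 of 1879 were in the Ccl8 cluster and 822 in an MHC class II cluster of lower Apoe. With at most 10% mitochondrial UMIs, a cluster led by Ccr7 and MHC class II genes was named dendritic-like instead. It held 224 day 3, 156 day 7 and 674 day 14 cells. The levels and gaps of these libraries, the 1.19-fold gap at day 14 among them, thus rest partly on how these cells were named. The same holds for the narrowing of the gap. At day 7, 11.6% of all UMIs of monocyte/macrophage-like cells were Apoe. Among all genes detected, Apoe ranked 76 in sham and 12 at day 3 in microglia-like cells, and 1 at days 7 and 14 in both classes.

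Astrocyte-like cells kept a high Apoe level throughout. It was 14124 CPM in sham, 8283 at day 1, 9706 at day 3, 36884 at day 7 and 24617 at day 14, lowest at day 1 and highest at day 7. In sham astrocyte-like cells exceeded microglia-like cells 10.3-fold, and at day 1 8.06-fold. At day 3 the ratio was 1.39, and at days 7 and 14 microglia-like cells were the higher class by 1.37-fold and 2.70-fold. The order of the 2 classes therefore turned between day 3 and day 7.

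Other classes with at least 50 cells stood below astrocyte-like cells in every library, except endothelial-like cells at day 14. Oligodendrocyte-like cells, which make myelin, had 691 CPM in sham, 512 at day 1, 588 at day 3, 7600 at day 7 and 5639 at day 14. Neural progenitor- or neuroblast-like cells had 772, 438, 1016, 6513 and 7370 CPM in the same order. In endothelial-like cells the level was 2613 CPM in sham, 1177 at day 1, 1878 at day 3, 10765 at day 7 and 31746 at day 14, the last from 65 cells with a median of 20101 UMIs. At day 14 these 65 cells stood above astrocyte-like cells. Oligodendrocyte precursor-like cells had 2005 CPM in sham, 803 at day 3, 9802 at day 7 and 8684 at day 14. Choroid plexus-like cells, absent from sham, had 3129, 3457 and 7081 CPM at days 1, 3 and 14, and neutrophil-like cells 1077, 3841, 11647 and 9426 CPM at days 1 to 14. T or NK-like cells had 664 CPM at day 3, 6956 at day 7 and 6167 at day 14. At day 14 few cells carried several of these levels: the 5% of cells with most Apoe held 72.3% of the Apoe UMIs in neural progenitor- or neuroblast-like, 71.2% in T or NK-like, 69.4% in neutrophil-like and 68.5% in oligodendrocyte precursor-like cells, against 20.3% in microglia-like cells. In neutrophil-like cells the 5% with most Apoe held 67.4% at day 3 as well. Each class listed here was thus higher at days 7 and 14 than in any earlier library where it had at least 50 cells.

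In sham the order from high to low was astrocyte, endothelial, oligodendrocyte precursor, microglia, neural progenitor and oligodendrocyte-like, and the intervals overlapped between the second and the third and between the last pair. At day 1 monocyte/macrophage-like cells came ahead of astrocyte-like cells, choroid plexus and ependymal-like cells overlapped, and so did endothelial, neutrophil and microglia-like cells. At day 3 T or NK-like cells, the unnamed cluster and oligodendrocyte-like cells overlapped at the low end. At day 7 the order began with monocyte/macrophage, microglia and astrocyte-like cells and ended with T or NK, dendritic and neural progenitor-like cells, whose intervals overlapped. At day 14 plasma-like and T or NK-like cells overlapped, at 6178 and 6167 CPM. The other neighbours in these 5 orders had intervals that did not overlap.

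**Figure D2:**
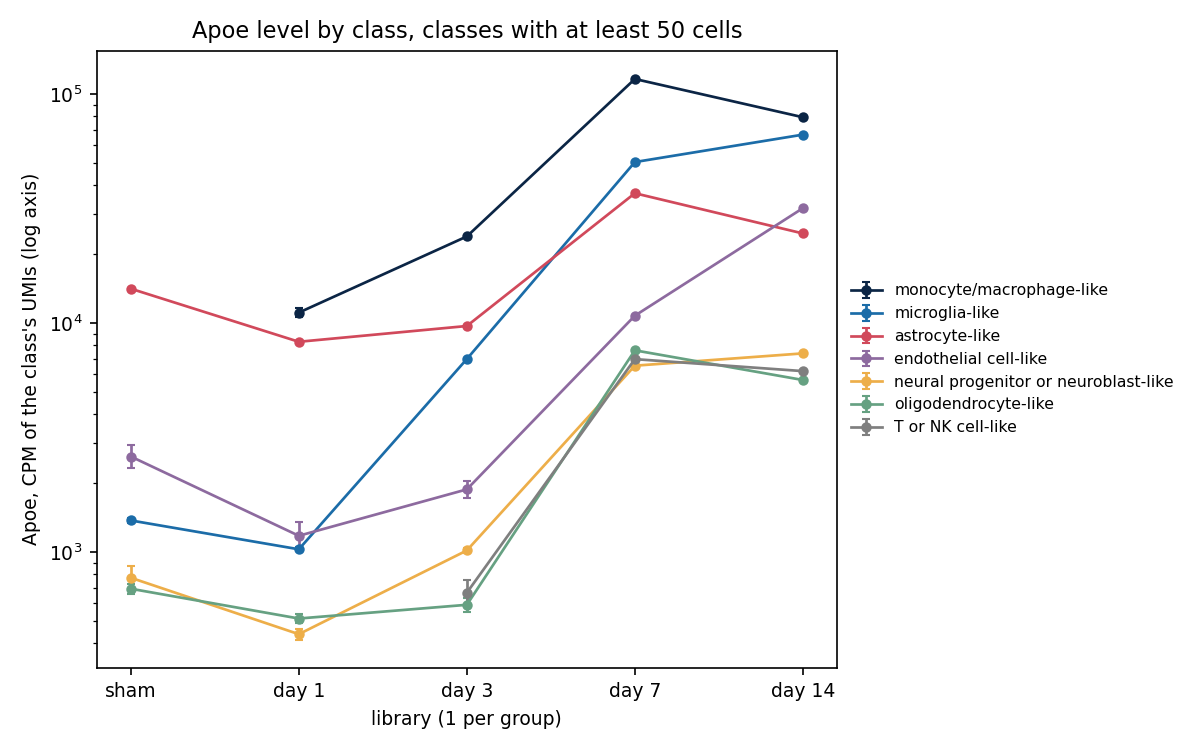
Points give the Apoe level in CPM, on a logarithmic axis, for 7 cell classes in each library from sham to day 14 where the class had at least 50 cells, with bars for the 95% counting interval. Astrocyte-like cells lie highest in sham (14124 CPM), and monocyte/macrophage-like cells lie highest in all 4 injured libraries, up to 116362 CPM at day 7.

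The rise was in most cells and not in a few. To compare cells of unequal depth, each was thinned to 500 UMIs. Of microglia-like cells, 37.4% then had an Apoe UMI in sham, 26.7% at day 1, 73.0% at day 3, 99.3% at day 7 and 98.6% at day 14. Before thinning the first 3 shares were 48.8%, 54.3% and 94.8%. The median microglia-like cell had 0 Apoe UMIs among 500 in sham and at day 1, 2 at day 3, 18 at day 7 and 24 at day 14. Astrocyte-like cells had medians of 6, 4, 4, 16 and 11, and at least 93.8% of them had an Apoe UMI in each library. In microglia-like and monocyte/macrophage-like cells together, the 5% of cells with most Apoe held 40.7% of the Apoe UMIs of these cells in sham, 54.4% at day 1, 33.9% at day 3, 29.1% at day 7 and 20.3% at day 14.

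**Figure D3:**
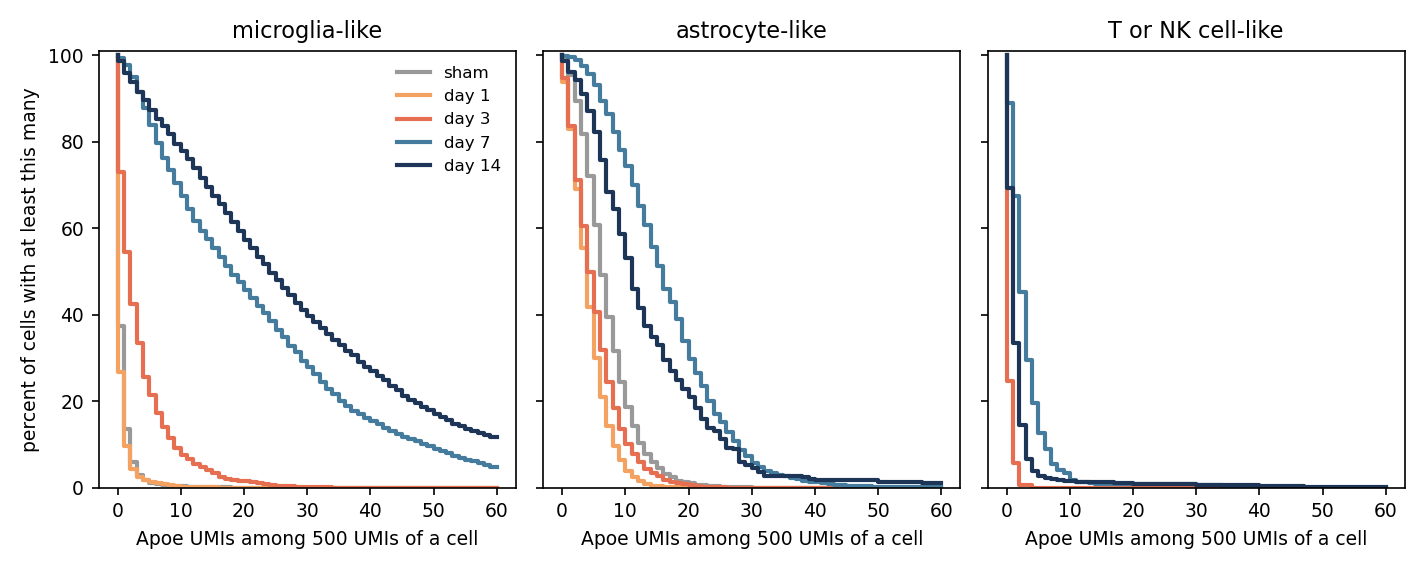
Curves give the percent of cells (vertical axis) with at least a given number of Apoe UMIs among 500 (horizontal axis) in microglia-like, astrocyte-like and T or NK-like cells, 1 curve per library with at least 50 cells of the class. In microglia-like cells the curves of days 7 and 14 (medians 18 and 24) lie right of sham and day 1 (medians 0), while T or NK-like cells reach medians of at most 2.

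Within the macrophage classes Apoe differed between clusters. A cluster led by Ccl8, Gpnmb and Ms4a7, the last a gene of border and recruited macrophages, had 128751 CPM at day 7 (618 cells) and 107483 at day 14 (1027 cells). A cluster led by MHC class II genes and holding Ccr2, a receptor of blood monocytes, among its leading genes had 3331 CPM at day 3, 17762 at day 7 and 27619 at day 14. The Ccl8 cluster was therefore several times above the MHC class II cluster in the same libraries. Among microglia-like clusters, that led by Cst7, Lag3 and Spp1 had 67562 CPM at day 7 and 64350 at day 14, and that with cell division genes (Cdk1, Mki67) 4807 at day 3, 42844 at day 7 and 40870 at day 14. Each library's microglia-like cells fell mostly in clusters of their own: cluster 2 in sham, 3 at day 1 (led by Ccl12, Ccl4 and Gpr84), 15 at day 3 (Ccl4, Ccl3, Tnf), 20 and 26 at day 7 and 28 at day 14 (all 3 led by P2ry12, Siglech or Gpr34). Clusters held mostly by 1 library cannot be told apart from that library.

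Against sham, microglia-like and monocyte/macrophage-like cells were taken as 1 joint class, since sham held 22 of the latter. The log2 ratio of Apoe to sham was -0.18 at day 1 (interval -0.23 to -0.13), 3.13 at day 3, 5.52 at day 7 and 5.67 at day 14, a 50.8-fold difference at day 14. Microglia-like cells alone gave -0.42, 2.34, 5.20 and 5.60. With the free RNA that marker genes allow subtracted from both libraries, the day 1 ratio turned to 0.27. The median gene of the joint class had a log2 ratio of -0.06, -0.35, -0.36 and -0.54 at days 1 to 14, and relative to that median the Apoe ratio at day 14 was 6.20. In astrocyte-like cells the ratios were -0.77, -0.54, 1.38 and 0.80, around class medians of -0.07, -0.12, -0.14 and 0.13, and in oligodendrocyte-like cells -0.43, -0.23, 3.46 and 3.03, around medians of 0.02, -0.15, -0.07 and 0.06. All these comparisons share the sham library.

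Of the 6 genes in the joint class, counting genes with a mean of at least 10 CPM over the 2 libraries, at day 1 0 were at least 2-fold higher than sham and 0 at least 2-fold lower, where 7.92% and 10.2% of all measured genes were. At day 3, 2 were higher (Apoe, Apoc1) and 1 lower (Clu), against 10% and 24.5% of all genes. At day 7, 3 were higher (Apoe, Apoc1, Apoc4) and 0 lower, against 4.94% and 14.7%. The same 3 were higher at day 14 and Clu was lower, against 6.67% and 26.3%. Apoc1 and Apoc4 reached the CPM minimum only through the injured libraries, so they could only be higher, and nothing is read from these counts.

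Droplet libraries can also hold free RNA, which is captured together with that of the cell, which matters for a gene as abundant as Apoe. The level of a class was set as a percent of the level over all kept cells of its library. This was done for Apoe and for a list of marker genes of the class that was Apoe's main source elsewhere in that library. For most classes these were 12 astrocyte genes in sham and at day 1, and 12 microglia genes from day 3. Astrocyte-like cells were set against the microglia list throughout. Microglia-like and monocyte/macrophage-like cells were set against the astrocyte list from sham to day 7 and an oligodendrocyte list at day 14. Empty droplets were not used here, so kept cells stand in for the free RNA pool. A ratio of the 2 percentages near 1 means that Apoe stood where markers of its source stood.

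T or NK-like cells, which are lymphocytes, stood at or under the level of the lists. Their Apoe percent was 9.88 at day 1 (32 cells), 7.96 at day 3, 16.5 at day 7 and 13.2 at day 14, against 10.3, 13.8, 23.3 and 17.5 for the lists, which gives ratios of 0.964, 0.576, 0.705 and 0.752. The microglia list contains genes that lymphocytes make themselves, such as Selplg (146% of library level at day 7) and Laptm5 (89.2%). The complement genes C1qa, C1qb and C1qc, which mark microglia and macrophages, gave 7.69% at day 3, 16.6% at day 7 and 12.2% at day 14, within a few percentage points of Apoe. Single microglia genes lay close to these values at day 7, with P2ry12 at 16.1% and Tmem119 at 17.2%. Apoe ranked 10 among the genes of T or NK-like cells at day 7, and 88.9% of them had an Apoe UMI among 500. The 5% of T or NK-like cells with most Apoe held 48.4% of the class's Apoe UMIs at day 3, 39.5% at day 7 and 71.2% at day 14, so the day 14 percent and its Apoc1 and Apoc4 ratios rest largely on few cells. Whether any of this Apoe was transcribed in T or NK-like cells was not tested.

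The neighbours of Apoe differed between libraries in these cells. For 1000 Apoe UMIs, T or NK-like cells at day 14 had 4.56 Apoc1 UMIs (interval 4.05 to 5.12) and 1.82 Apoc4 UMIs (1.50 to 2.19). The joint microglia and macrophage class had 4.80 and 1.92, inside those intervals. At day 7 T or NK-like cells had 3.60 Apoc1 UMIs (2.70 to 4.70) and 0.667 Apoc4 UMIs (0.320 to 1.23), and the 5.37 and 1.33 of the joint class lay above both intervals. All kept cells, which stand in for the free RNA pool, had 4.76 and 1.10 at day 7. The first lay just above its interval and the second inside. Erythroid-like cells, of the red blood cell lineage, had an Apoe percent of 9.48 at day 7 (32 cells) and 4.76 at day 14 (30 cells), against 6.74 and 4.75 for the microglia list. Plasma-like cells had 13.2 at day 14 against 15.2, a ratio of 0.868. For these antibody-secreting and erythroid cells the ratios thus lay between 0.868 and 1.41.

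Oligodendrocyte-like cells were above the marker level at days 7 and 14. Their ratio was 1.26 in sham, 1.24 at day 1, 0.897 at day 3, 1.79 at day 7 and 2.44 at day 14. At day 7 Apoe stood at 18.0% of library level while the 12 microglia genes ranged from 9.32% to 11.4%, and at day 14 at 12.05% against 4.29% to 8.49%. Apoe was thus above each of the 12 genes in both libraries. The neighbours differed between the 2 libraries. At day 7 Apoc1 stood at 13.8% of its library level, also above each of the 12 genes, and Apoc4 at 10.4%, within their range. At day 14 Apoc4 stood at 1.93%, under each of them, with 0.300 Apoc4 UMIs for 1000 Apoe UMIs against 1.92 in the joint class. Apoc1 then stood at 4.53%, close to the 4.93% of the list. Thinned to 500 UMIs, the median oligodendrocyte-like cell had 3 Apoe UMIs at day 7 and 2 at day 14, and 90.9% and 85.3% of cells had at least 1. Free RNA, Apoe transcribed in these cells and captured material of neighbouring cells were not told apart.

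Other classes varied. Neural progenitor- or neuroblast-like cells had ratios of 0.992, 0.731, 1.53, 1.43 and 1.40. In neutrophil-like and dendritic-like cells the microglia list holds genes these cells make themselves, with single genes at up to 218% and 262% of library level, and the ratio depended on the genes used. Neutrophil-like cells had Apoe at 46.0%, 27.5% and 20.1% at days 3, 7 and 14, against 56.4%, 59.2% and 42.7% for the list and 26.2%, 39.0% and 19.6% for the C1q genes. Dendritic-like cells had Apoe at 6.13% (20 cells), 16.2% and 11.7%, against 21.0%, 43.7% and 20.1% for the list and 3.92%, 30.0% and 8.28% for the C1q genes. Apoe was thus under the list in all 3 libraries in both classes, but above the C1q genes at days 3 and 14, by little in neutrophil-like cells at day 14. Some of these percents rest largely on few cells. The 5% of cells with most Apoe held 67.4% of the Apoe UMIs of neutrophil-like cells at day 3 and 69.4% at day 14. In dendritic-like cells at day 14 they held 65.9%. Endothelial-like cells at day 14, whose Apoe level was 31746 CPM, had a ratio of 0.934, and the microglia list stood in them at 72.6% of library level. Microglial transcripts and Apoe therefore came together in these 65 cells, and their part in the Apoe level was not tested. Astrocyte-like cells, measured against the list of their library's other main source, were far above it, at 26.7, 44.2, 19.97, 7.16 and 3.87 times the microglia list. In the joint class Apoe stood at 25.8%, 35.7%, 148%, 153% and 153% of library level from sham to day 14, and the astrocyte list at 11.8%, 9.26%, 6.28%, 11.0% and 18.1%. The oligodendrocyte list, which was the one used for this class at day 14, stood at 6.08% then.

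**Figure D4:**
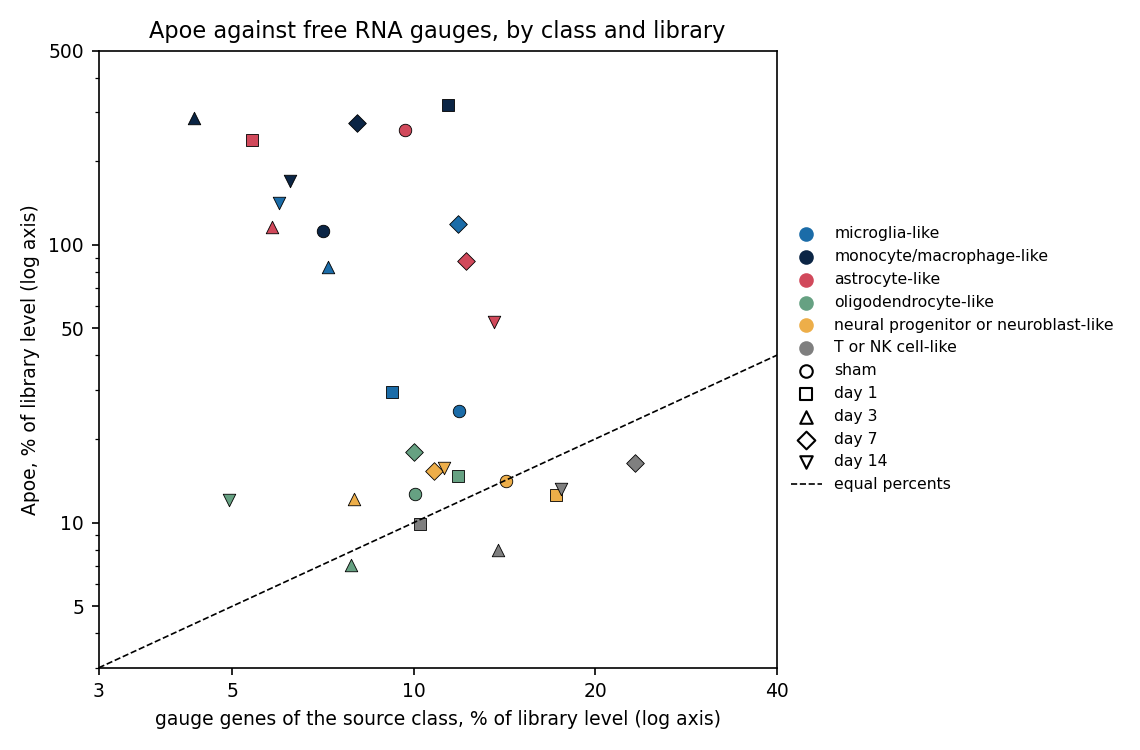
Each point is 1 of 6 classes in 1 library with at least 20 of its cells: the horizontal axis is the level of the source's marker list and the vertical axis the Apoe level, both as percent of the library level on logarithmic axes, with a dashed line where they are equal. T or NK-like cells lie on or under the line (ratios 0.576 to 0.964), while oligodendrocyte-like cells at days 7 and 14 lie above it (1.79 and 2.44).

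The C apolipoproteins beside Apoe were scarce in sham and followed it in microglia and macrophages. Since 3′ counting gives 1 UMI per captured transcript whatever its length, UMI numbers of different genes are set side by side on that scale. Apoc1, an inhibitor of lipoprotein uptake and of lipid transfer, had 74 UMIs in the whole sham library, 100 at day 1, 1051 at day 3, 19955 at day 7 and 26780 at day 14. In the joint class it had 0.811 CPM in sham (3 UMIs), 2.56 at day 1, 48.9 at day 3, 347 at day 7 and 343 at day 14. The log2 ratio was 8.72 at day 14, with an interval of 7.18 to 11.00 because sham held 3 UMIs. At day 7 monocyte/macrophage-like cells had 519 CPM and microglia-like cells 300, and at day 14 325 and 354, so the order of the 2 turned. At day 14, 822 of 1879 monocyte/macrophage-like cells were in the MHC class II cluster. Naming of such cells depended on the setting, as described for Apoe, and the Apoc1 order under the other naming was not tested.

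In sham Apoc1 was a transcript of astrocyte-like cells, which held 89.2% of its UMIs at 20.4 CPM. Their level was 7.16 CPM at day 1, 13.8 at day 3, 71.1 at day 7 and 78.9 at day 14, and their share fell to 0.556% at day 14, when the joint class held 94.8%. The astrocyte-like log2 ratio was -1.51, -0.56, 1.80 and 1.95. Choroid plexus-like cells, which make cerebrospinal fluid, had the highest Apoc1 relative to Apoe. They had 69.3 CPM at day 1 (14 UMIs), 71.4 at day 3 (33 UMIs) and 62.4 at day 14 (98 UMIs). For 1000 Apoe UMIs these were 22.2, 20.7 and 8.81 Apoc1 UMIs, against 0.865, 1.43 and 3.21 in astrocyte-like cells and 2.07, 3.96 and 4.80 in the joint class.

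Apoc4, a little studied particle component, was near absent before day 3. The libraries held 3 UMIs in sham, 3 at day 1, 225 at day 3, 4590 at day 7 and 10564 at day 14. The joint class held 95.1%, 95.6% and 96.1% of them at days 3, 7 and 14, at 12.4, 86.0 and 137 CPM. Sham had 1 UMI in that class, so the log2 ratio of 8.99 at day 14 has an interval of 6.51 to 14.29. Day 7 monocyte/macrophage-like cells had 174 CPM against 61.9 in microglia-like cells, and at day 14 163 against 120. Astrocyte-like cells had 3.32 CPM at day 7 and 17.5 at day 14 (33 UMIs). Among microglia-like cells thinned to 500 UMIs, 3.44% had an Apoc4 UMI at day 14, and 25.5% of the unthinned cells did.

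For each 1000 Apoe UMIs the joint class had 0.576 Apoc1 UMIs in sham, 2.07 at day 1, 3.96 at day 3, 5.37 at day 7 and 4.80 at day 14, and 0.192, 0, 1.00, 1.33 and 1.92 Apoc4 UMIs. For a given number of Apoe UMIs, Apoc1 and Apoc4 were thus higher at day 7 than in sham, where they rest on 3 and 1 UMIs. In sham Apoc1 stood at 10.7% of library level in the joint class, against 11.8% for the astrocyte list. Its 3 UMIs were thus within the amount allowed as free RNA. Apoe stood at 25.8%, so part of its sham level was within that amount too. Apoc2, the activator of lipoprotein lipase, had 0 UMIs in sham and at day 1, 15 at day 3, 11 at day 7 and 37 at day 14 over whole libraries. Gm44805, with which it shares its 3′ end, had 0 in all 5. These few UMIs say little, since reads in the shared end may not have been counted.

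Apod stayed with oligodendrocyte-like cells, which held between 87.9% and 96.2% of its UMIs in each library. Their level was 3396 CPM in sham (interval 3320 to 3474), 8046 at day 1, 49388 at day 3, 9139 at day 7 and 14929 at day 14. Every injured library was above sham, and day 3 stood apart, with Apod ranking 2 among all genes of the class against 15 in sham. The log2 ratios to sham were 1.24, 3.86, 1.43 and 2.14. Thinned to 500 UMIs, the median oligodendrocyte-like cell had 1 Apod UMI in sham, 2 at day 1, 23 at day 3, 2 at day 7 and 4 at day 14. The share with an Apod UMI was 73.7%, 75.0%, 89.6%, 79.8% and 89.6%, so the day 3 level came with more UMIs per cell and not only with more cells that had any.

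The day 3 library held 375 oligodendrocyte-like cells, against 1248 in sham. Most cells of sham, day 1 and day 3 were in 1 cluster, whose Apod level was 3397, 8259 and 51572 CPM, so the difference was there within a cluster. The cells of day 7 and day 14 were mostly in 2 other clusters, at 9179 and 15065 CPM. The 53 and 83 cells of days 7 and 14 in the shared cluster had 4042 and 12582 CPM. Oligodendrocyte precursor-like cells, from which oligodendrocytes form, had 125 CPM in sham and 61.3, 157 and 137 at days 3, 7 and 14. These levels were under what the summed oligodendrocyte marker genes allowed as free RNA. Single genes of that list reached 107%, 136%, 155% and 253% of library level in these cells, so nothing is read from that.

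Outside oligodendrocyte-like cells, Apod was high in the unnamed cluster led by collagen genes, at 2692 CPM at day 3 (94 cells) and 8646 at day 7 (131 cells). The 5% of its cells with most Apod held 52.9% of its Apod UMIs at day 3 and 61.6% at day 7, so few cells carried these levels. Endothelial-like cells had 596, 416, 1900, 568 and 606 CPM from sham to day 14, or 1.02, 3.47, 2.26, 1.67 and 2.77 times what oligodendrocyte marker genes allowed as free RNA. The 5% of endothelial-like cells with most Apod held 61.8%, 55.7%, 39.3%, 48.4% and 39.3% of their Apod UMIs, so few cells carried much of these levels. The day 3 factor depended on the genes used. Single list genes reached 548% of library level in endothelial-like cells then, with a median of 8.12%, against 102% for Apod. Microglia-like cells had 74.6, 100, 89.5, 153 and 77.2 CPM, or 0.550, 0.556, 0.191, 0.670 and 0.486 times the amount allowed by these marker genes, and so at no time point reached it. How far under depended on the genes used. At day 3 single list genes reached 103% of library level in these cells, with a median of 6.03%, against 4.79% for Apod. In each library Apod was under the median list gene too. Astrocyte-like cells were at 143 CPM at day 7 and 439 at day 14, log2 ratios of 1.25 and 2.88, but at 0.763 and 0.973 times the allowed amount. At day 14 their Apod stood at 16.5% of library level, between the median list gene at 14.1% and the summed list at 17.0%.

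Clu was an astrocyte transcript in all 5 libraries. Astrocyte-like cells had 4456 CPM in sham, 6724 at day 1, 5075 at day 3, 11631 at day 7 and 5868 at day 14, and held 92.4%, 91.3%, 91.8%, 85.6% and 61.9% of the Clu UMIs. Day 7 was highest, with a log2 ratio to sham of 1.38, and the other 3 were 0.59, 0.19 and 0.40. Among astrocyte-like genes Clu ranked between 6 and 10 in each library. Thinned to 500 UMIs, between 78.8% and 90.2% of astrocyte-like cells had a Clu UMI.

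Ependymal-like cells, which line the ventricles, had 3725 CPM of Clu at day 1 and 4256 at day 14 (37 cells), and choroid plexus-like cells 2624, 2449 and 1801 at days 1, 3 and 14. At day 14, when the library held 281 astrocyte-like cells, these 2 classes held 11.2% and 15.8% of its Clu UMIs. The level over the whole library was 1601, 2514, 1402, 2355 and 148 CPM from sham to day 14. Day 14 was lowest over the library although it was above sham within astrocyte-like cells.

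In microglia and macrophages the Clu level went up and down with that of the whole library. The joint class had 175 CPM in sham, 226 at day 1, 86.4 at day 3, 294 at day 7 and 9.88 at day 14, the last a 17.7-fold difference from sham. Against astrocyte marker genes these values stood at 0.921, 0.970, 0.981, 1.13 and 0.368 times the amount allowed as free RNA, so in sham and at days 1 to 7 they were close to it. The day 14 value depended on the genes used, since single list genes stood at 5.10% to 71.3% of library level in the joint class. Clu stood at 6.66% there, near their median of 7.55%. The lower level at day 14 came in the library where astrocyte-like cells were 2.44% of cells. In oligodendrocyte-like cells Clu was likewise 150 CPM in sham and 27.1 at day 14.

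**Figure D5:**
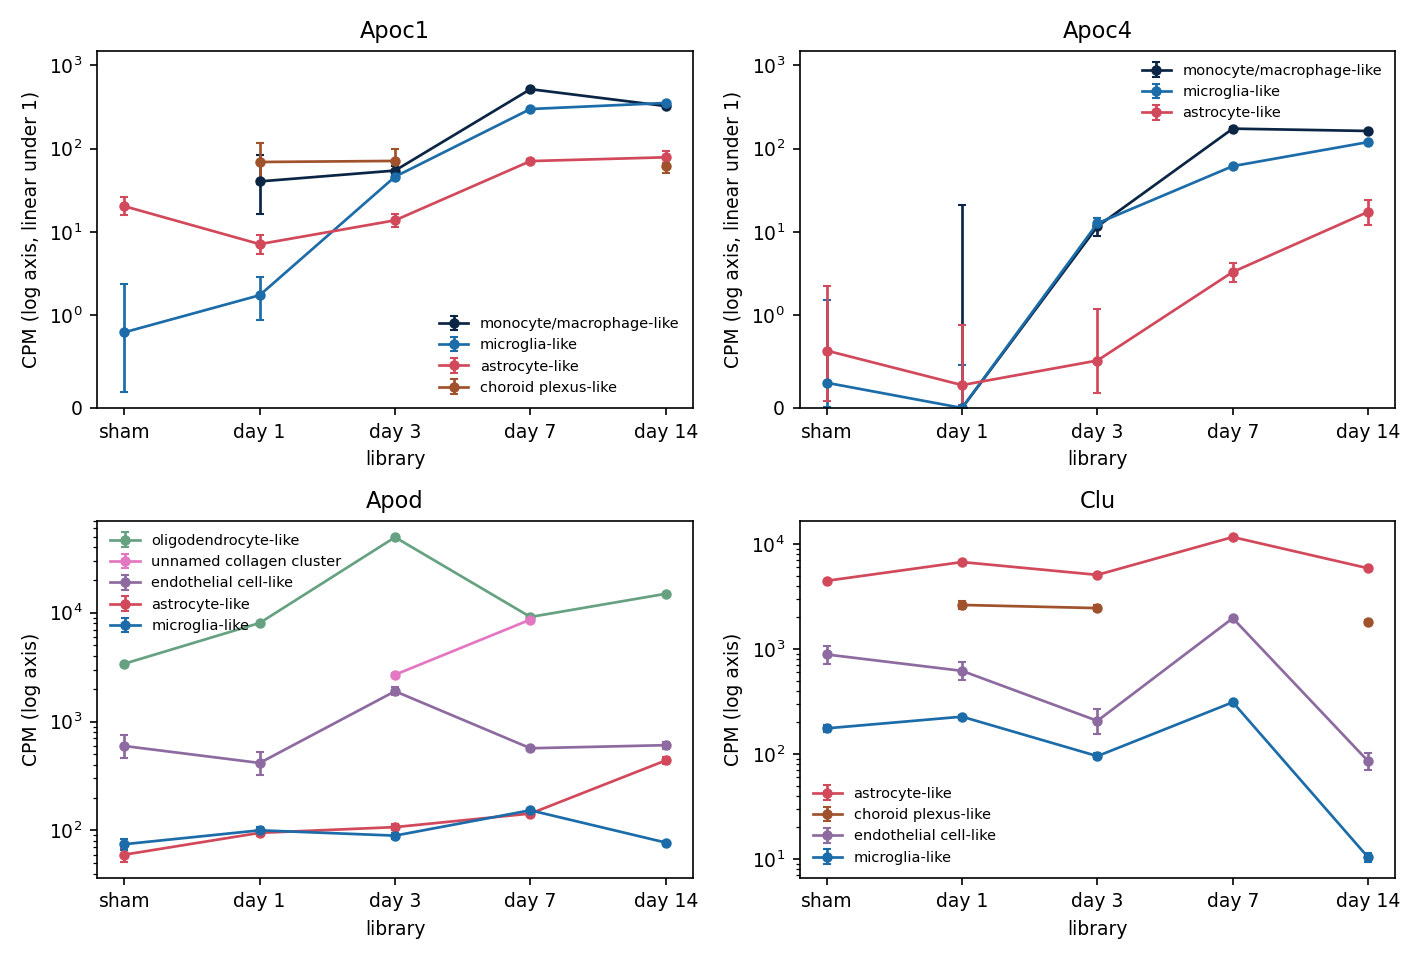
Levels of Apoc1, Apoc4, Apod and Clu in CPM by class and library (classes with at least 50 cells, bars for the 95% counting interval; the Apoc1 and Apoc4 axes are linear near 0 and logarithmic above). Apoc1 and Apoc4 rise from day 3 in microglia-like and monocyte/macrophage-like cells, Apod peaks at 49388 CPM in oligodendrocyte-like cells at day 3, and Clu stays highest in astrocyte-like cells, at 11631 CPM at day 7.

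In astrocyte-like cells, 0 of the 6 genes were at least 2-fold higher and 1 (Apoc1) at least 2-fold lower than sham at day 1, where 12.5% and 13.9% of all measured genes were. At day 3 there were 0 and 0, against 9.72% and 14.9%. At day 7, 4 were higher (Apoe, Apoc1, Apod, Clu) and 0 lower, against 4.4% and 10%, and at day 14, 2 were higher (Apoc1, Apod), against 15.9% and 8.97%. Most astrocyte-like cells of sham, day 1, day 3 and day 7 were in different clusters (0 and 4, 12, 1 and 11). In oligodendrocyte-like cells Apod was the only 1 of the 6 past 2-fold higher at days 1 and 3, with 0 lower, against 6.65% and 4.98% of all genes at day 1 and 9.93% and 14.6% at day 3. Apoe, Apoc1 and Apod, 3 of 6, were higher at day 7, with 0 lower, against 5.01% and 5.4%. Apoc1, with 1.80 CPM in sham and 27.7 at day 7, passed the CPM minimum only through day 7. It could only be higher there, and nothing is read from this count. At day 14 Apoe and Apod were higher and Clu lower, against 4.02% and 3.65%.

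Genes that act on lipoproteins were taken from lists that do not include the 6. In the joint class, of 16 genes for lipid transfer and lipoprotein enzymes, 10 were measured at day 14, 6 of them at least 2-fold higher and 1 lower than sham, against 6.67% and 26.3% of all measured genes. Their median log2 ratio was 1.07, against -0.54 over all genes of the class. Lpl, lipoprotein lipase, had 16.0 CPM in sham, 581 at day 1, 78.3 at day 3, 206 at day 7 and 278 at day 14, so it was highest at day 1, before Apoe rose. Pltp, which moves phospholipid between particles, had 6.49 CPM in sham, 84.7 at day 3, 72.6 at day 7 and 147 at day 14. It reached the CPM minimum only through the injured libraries, so it could only be higher. Abca1 and Abcg1, transporters that load cholesterol onto ApoE, were at 203 and 78.1 CPM in sham, 477 and 244 at day 7 and 417 and 183 at day 14. Npc2, which exports cholesterol from lysosomes, had 617 CPM in sham and 1717 at day 14.

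Of 15 lipoprotein receptor genes, 9 were measured in the joint class at day 14, 0 at least 2-fold higher and 1, Lrp5, lower, against the same 6.67% and 26.3% of all genes, with a median of -0.28. Trem2, a microglial receptor that binds ApoE, had 1977 CPM in sham, 828 at day 1, 1205 at day 3, 2224 at day 7 and 2079 at day 14, lower at days 1 and 3 and near the sham level later. Lrp1, a large endocytic receptor for ApoE, had 416, 668, 510, 273 and 273 CPM. Of 16 genes around the sterol and fatty acid receptors LXR, RXR and PPAR, a list that also holds Abca1 and Abcg1, 12 were measured at day 14, 3 higher and 4 lower, the latter a share near the 26.3% of all genes. Scd2, a fatty acid desaturase, was at 434 CPM in sham and 83.2 at day 14, and Mylip, a ubiquitin ligase, had a log2 ratio of -1.06. Of 22 other apolipoproteins and lipoprotein-bound proteins, 3 were measured at day 14, and 1 was higher (6.67% of all genes were), Saa3, an acute-phase protein of lipoproteins, with 292 CPM against 1.89. Saa3 reached the CPM minimum only through day 14, so it could only be higher.

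In astrocyte-like cells at day 14 the lipid transfer list had 13 measured genes, 4 higher and 1 lower, against 15.9% and 8.97% of all measured genes. Pltp had a log2 ratio of 3.57 and Abca1 of 1.88. Lcn2, a lipocalin of reactive astrocytes, had 0 UMIs in sham and 994, 864, 27.9 and 716 CPM at days 1, 3, 7 and 14. In oligodendrocyte-like cells at day 14 Abca1 was at 110 CPM against 18.0 in sham.

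Over the 49 combinations of class and library with at least 50 cells, the genes whose log2(CPM + 10) followed each of the 6 most closely were ranked among 10329 genes by Pearson's r. These points share libraries and free RNA, so r is a description. For Apoe they were Apoc1 (0.88), Hexa (0.75), a lysosomal enzyme subunit, Apoc4 (0.74) and Igf1 (0.74), a growth factor. For Apoc1 they were Apoe, Apoc4 (0.83), Igf1 (0.83) and Pld3 (0.78), and for Apoc4 Igf1 (0.92), Hpse (0.85), Apoc1 and Rapsn (0.82). Apod went with 2700046A07Rik (0.85), Ppp1r14a (0.84), Klk6 (0.83) and Unc5b (0.82), of which Klk6 is a protease of oligodendrocytes. Clu went with the astrocyte genes Ndrg2 (0.92), Ntrk2 (0.90), Mt3 (0.90) and Tmem47 (0.88). Apoe had r of -0.29 with Apod and 0.05 with Clu, so the 3 genes followed separate patterns over classes, and Apoc2 was under the level needed.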

How the data were processed

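The 5 libraries of dissociated mouse cortex cells were 1 per group. The files hold UMI counts per gene and barcode as whole numbers with no normalization, which the authors deposited and, per the file headers, made with Cell Ranger 4.0.0. STAR 2.5.37 and Seurat 3.2.0 are also listed in the submitters' processing notes, as are GRCm38 and mm10 for the genome, with no role given. The lowest UMI total per barcode was between 499 and 502, so barcodes had already been called as cells. The members of the gene set, the gene lists and the markers were chosen with earlier results of these data known.

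Barcodes with at least 500 UMIs, 200 genes and at most 20% mitochondrial UMIs were kept, and doublets called per library by Scrublet in scanpy 1.11.5 (3.39% to 9.11% of barcodes) were removed. Cells were clustered on 2000 variable genes without the 6 apolipoprotein genes (3 of them, Apoc1, Apod and Clu, were otherwise among these), 30 components and 15 neighbours, by the Leiden method at resolution 1. A cluster was named "-like" for the class with most markers at least 2-fold above other classes in at least 10% of its cells, with at least 3 markers, unless its 10 leading genes went against it. Names rebuilt this way may differ from the study's, and no deposited annotation was used.

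UMIs were summed per class and library and given as CPM with exact Poisson intervals. Ratios to sham have exact conditional binomial intervals and shares of cells have exact Clopper-Pearson intervals, at 95%, which cover counting error only. A gene was measured at a mean of at least 10 CPM over both libraries, called at 2-fold, and set against 3 UMIs where a library had 0. Classes with at least 50 cells were used (20 for free RNA). Shares of cells were compared after thinning to 500 UMIs. The 2 list choices in the free RNA comparison (markers of the main source, C1q genes for lymphocytes, neutrophils and dendritic cells) were made after seeing the data. The ratio step was tested on simulated counts. All 6 genes were named, with the 4 genes of most like pattern among those with at least 50 CPM in 1 class and library, and up to 3 genes per list and direction with at least 50 CPM. Genes named from clusters, markers and receptors set beside Apoe were chosen after their values were seen. Results of some genes are not reported here. All 55450 gene IDs were found in the GENCODE annotation used for positions. Python 3.11.15, numpy 2.4.6, scipy 1.17.1, pandas 2.3.3 and igraph 0.11.9 were used.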

Additional observations from a re-analysis of the deposited data

How the results depend on the processing

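Of the 25 ratios past 2-fold, all that could be recomputed kept their direction under each of the 12 alternatives. They stayed past 2-fold in 22 of 25 cases with at least 1000 UMIs per cell, in 25 of 25 with at most 10% mitochondrial UMIs, with the 6 genes among the variable genes, with clusters named against all other cells and with cells thinned to 500 UMIs, and in 24 of 25 with doublets kept, at Leiden resolution 2, with the median log2 ratio set to 0 and with a mean over cells. Fewer of the 25 could be recomputed in the last settings. It was 9 of 10 in microglia-like clusters alone, 20 of 20 with free RNA subtracted and 19 of 23 with day 1 as the reference. The 20 leave out called ratios of Clu in the joint and oligodendrocyte-like classes and of Apod in astrocyte-like cells. Their levels were under the amount allowed as free RNA in both libraries, so subtraction left no ratio. These calls did not survive the subtraction. The day 1 reference and the lists behind the subtraction were chosen after seeing the data.

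In the joint microglia and macrophage class at day 1, 1 gene was higher with no CPM minimum. At day 3, 1 was higher with a mean of at least 50 CPM, and 0 were lower with at least 1000 UMIs, doublets kept, Leiden resolution 2, the median set to 0, a mean over cells, microglia-like clusters alone or free RNA subtracted, where the value of Clu had been 2.02-fold. At day 7, 5 were higher with the median set to 0, a mean over cells or thinned cells. At day 14, 0 were lower with free RNA subtracted. In astrocyte-like cells, 0 were lower at day 1 with at least 1000 UMIs or a mean of at least 50 CPM, 1 was higher at day 3 with doublets kept, 2 at day 7 with day 1 as the reference, and 1 at day 14 with a mean of at least 50 CPM or free RNA subtracted. In oligodendrocyte-like cells, 1 was lower at day 1 with no CPM minimum, 1 lower at day 3 with doublets kept, free RNA subtracted or the day 1 reference, 1 higher at day 14 with the day 1 reference, and 0 lower at day 14 with free RNA subtracted. The cause was not tested.

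No paired analysis was possible because each group has 1 library. Depth, library makeup and group cannot be told apart for the same reason, and sham is the shallowest library, so that its Apoc1 and Apoc4 levels rest on 3 and 1 UMIs in the joint class.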
